A study of Mus musculus with 15 samples.

Results

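The cadherins Cdh1, Cdh2, Cdh3, Cdh6, Cdh11 and Cdh13 and the epithelial cell adhesion molecule gene Epcam were followed through every tumor and mammary gland of the series. These 7 genes were chosen by symbol from the 51826 genes of the deposited expression tables. RNA-seq gave values for 15 libraries of 13 mice, in TPM, an abundance of transcripts that is corrected for transcript length and sums to the same total in each library. The tables therefore do not show how deeply each library was sequenced, and counting error is left out.

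Trim24COE mice carried a Flag-tagged murine Trim24 transgene behind a floxed stop cassette, as a single-copy insertion of 1 transposon line. MMTV-Cre removed the stop in mammary epithelium. Their tumors were labeled carcinosarcoma (mice 64, 567 and 897) or carcinoma (mice 89, 273_5 and 3956). Controls were disease-free mammary glands of mice with MMTV-Cre alone (133, 392, 417_3 and 517_3), and non-TRIM24 tumors (219, FVB001 and FVB002) were carcinomas that arose spontaneously in mice of unknown genotype. All were of the FVB strain per the sample labels, but the series text gives FVB/129 for the controls and the study's text gives FVB or FVB/129 for the non-TRIM24 tumors. The females were virgin and were aged until a tumor could be felt or to the end of the cohort, and the study describes the control glands as age-matched. The Trim24COE mice differed in age, by months per the study's supplement, and age did not enter any comparison. Trim24COE tumors and control glands were sequenced in batch 1 and non-TRIM24 tumors in batch 2, together with technical repeat libraries of gland 133 and carcinoma 3956. The study's pathologists gave carcinosarcoma and carcinoma for tumors 89 and 3956, and spindle cell carcinoma and carcinosarcoma for 567. The classes used here are those of the sample labels. The study's supplement also lists a call based on RNA-seq, which is carcinosarcoma for 64, 567 and 897 and carcinoma for 89 and 273_5. These calls match the labels, so the labels may not be independent of the expression values compared here.

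Classical cadherins are transmembrane proteins whose extracellular repeats bind cadherins on the neighboring cell in the presence of calcium, while the cytoplasmic tail holds p120-catenin and beta-catenin and through alpha-catenin the actin cytoskeleton. Mammary luminal cells join one another through E-cadherin (Cdh1), and myoepithelial cells carry P-cadherin (Cdh3). N-cadherin (Cdh2) and cadherin 11 (Cdh11) are typical of mesenchymal cells, and a loss of E-cadherin with a gain of N-cadherin is known as the cadherin switch of epithelial-mesenchymal transition. Cadherin 6 (Cdh6, K-cadherin) is best known from kidney and neural tissue. Cadherin 13 (Cdh13, T-cadherin) lacks a transmembrane segment and a cytoplasmic tail, is held by a lipid anchor, binds adiponectin, and is abundant in blood vessels. EpCAM is not a cadherin: it is an epithelial surface glycoprotein that associates with claudin-7, and it is protected from cleavage by matriptase when the Kunitz inhibitors of that protease are present.

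Cdh1 (chromosome 8, 106603351 to 106670246, plus strand, GRCm38, GENCODE M21) lies 46.1 kb downstream of Cdh3 (chromosome 8, 106510891 to 106557297) on the same strand. Cdh11 (chromosome 8, 102632095 to 102785642, minus strand) and Cdh13 (chromosome 8, 118283733 to 119324921, plus strand) bring the members on chromosome 8 to 4. Cdh6 is on chromosome 15 (13028701 to 13173675, minus strand) and Epcam is on chromosome 17 (87635979 to 87651129, plus strand). Non-coding genes are annotated inside Cdh2, Cdh11 and Cdh13, some of them antisense, and since the sources differ on whether the library kit kept strand, reads of such pairs may not have been told apart.

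Of the 7 genes, 2 (Epcam and Cdh6) had an entry in the RefSeq promoter table. The 250 bases upstream of the Epcam start, chr17:87635729-87635978 (GRCm38.p6, plus strand), are shown because Epcam differed most between the tumor classes. Capitals mark the words CACCTG and CAGGTG, which are each other's reverse complement and are the core letters bound by Snail and ZEB family repressors.
Epcam: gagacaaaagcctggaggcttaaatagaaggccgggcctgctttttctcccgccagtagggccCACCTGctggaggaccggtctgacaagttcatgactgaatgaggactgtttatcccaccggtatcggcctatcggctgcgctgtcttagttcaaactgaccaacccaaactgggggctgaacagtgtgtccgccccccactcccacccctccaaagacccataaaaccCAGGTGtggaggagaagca
The 2 words begin 187 and 19 bases before the start. Of the 32851 windows of this length in the table, 17.2% held at least 1 of these words and 2.06% held 2 or more, so a single match is common. A match describes letters and not binding.

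Libraries were not uniform within groups. Among the control glands, adipocyte Adipoq stood at 1720 and 1950 TPM in 133 and 392 and at 10.2 and 10.8 TPM in 417_3 and 517_3, and non-TRIM24 tumor FVB001 had 4320 TPM. Keratin genes followed the opposite order in the glands: Krt14, a myoepithelial keratin, had 34.2 and 50.7 TPM in 133 and 392 against 987 and 1060 TPM in 417_3 and 517_3. Luminal markers Krt8 and Krt18 were present in all 15 libraries, with a summed level of 240 to 6680 TPM. Trim24 itself, which includes transgene reads, had 10.6 to 24.1 TPM in the first libraries of Trim24COE tumors, 14.5 to 22.4 TPM in control glands and 5.34 to 10 TPM in non-TRIM24 tumors. In bulk tissue, fewer cells of a type and less RNA per cell cannot be told apart, which holds for every value given here.

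Within batch 1, Cdh1 was lowest in the carcinosarcomas. It measured 3.19 TPM in tumor 64, 18.87 TPM in 567 and 1.29 TPM in 897. The carcinomas had 123.81 TPM in 89, 84.83 TPM in 273_5 and 102.61 TPM in 3956, and the control glands 39.15, 36.88, 196.12 and 152.34 TPM in 133, 392, 417_3 and 517_3. All 3 carcinosarcomas thus lay below every Trim24COE carcinoma and every control gland, while these carcinomas fell within the range of the glands. Non-TRIM24 tumor FVB001, in batch 2, had 4.84 TPM, below carcinosarcoma 567. Against control glands, Cdh1 fell in carcinosarcomas by 3.84 on the log2(TPM + 1) scale (SE 0.87, limma adjusted p = 0.0177), with means of 7.78 ± 9.65 TPM (SD, n = 3) and 106.1 ± 80.7 TPM (SD, n = 4). The exact permutation test, two-sided, gave p = 0.0286, the smallest that 3 against 4 samples allow. The call was lost in some fits. The limma adjusted p was 0.066 with no filter on low values, 0.0802 without carcinosarcoma 64, 0.0666 without 897 and 0.0588 without the keratin-rich glands 417_3 and 517_3, and it was 0.00619 without the adipose-rich glands 133 and 392.

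Epcam had the largest differences of the 7 genes in both comparisons of carcinosarcomas within batch 1. It stood at 10.28, 36.44 and 2.73 TPM in carcinosarcomas 64, 567 and 897. Carcinomas had 1275.33 TPM in 89, 280.53 TPM in 273_5 and 401.04 TPM in 3956, and control glands 153.36, 183.46, 642.51 and 660.87 TPM in the order 133, 392, 417_3 and 517_3. The highest carcinosarcoma was below the lowest gland. Non-TRIM24 tumor FVB001, in batch 2, had 36.42 TPM, just under carcinosarcoma 567. Epcam fell in carcinosarcomas against control glands by 4.83 on the log2(TPM + 1) scale (SE 0.84, limma adjusted p = 0.00691, means 16.5 ± 17.7 and 410 ± 279 TPM, SD, n = 3 and 4). It remained past the threshold in all 17 alternative fits of this comparison, with limma adjusted p-values from 0.00356 to 0.0371. With Cdh1 it made up the 2 of 6 tested genes that were called, both lower, where 23.0% of all 15287 genes tested were called in this comparison.

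**Figure D1:**
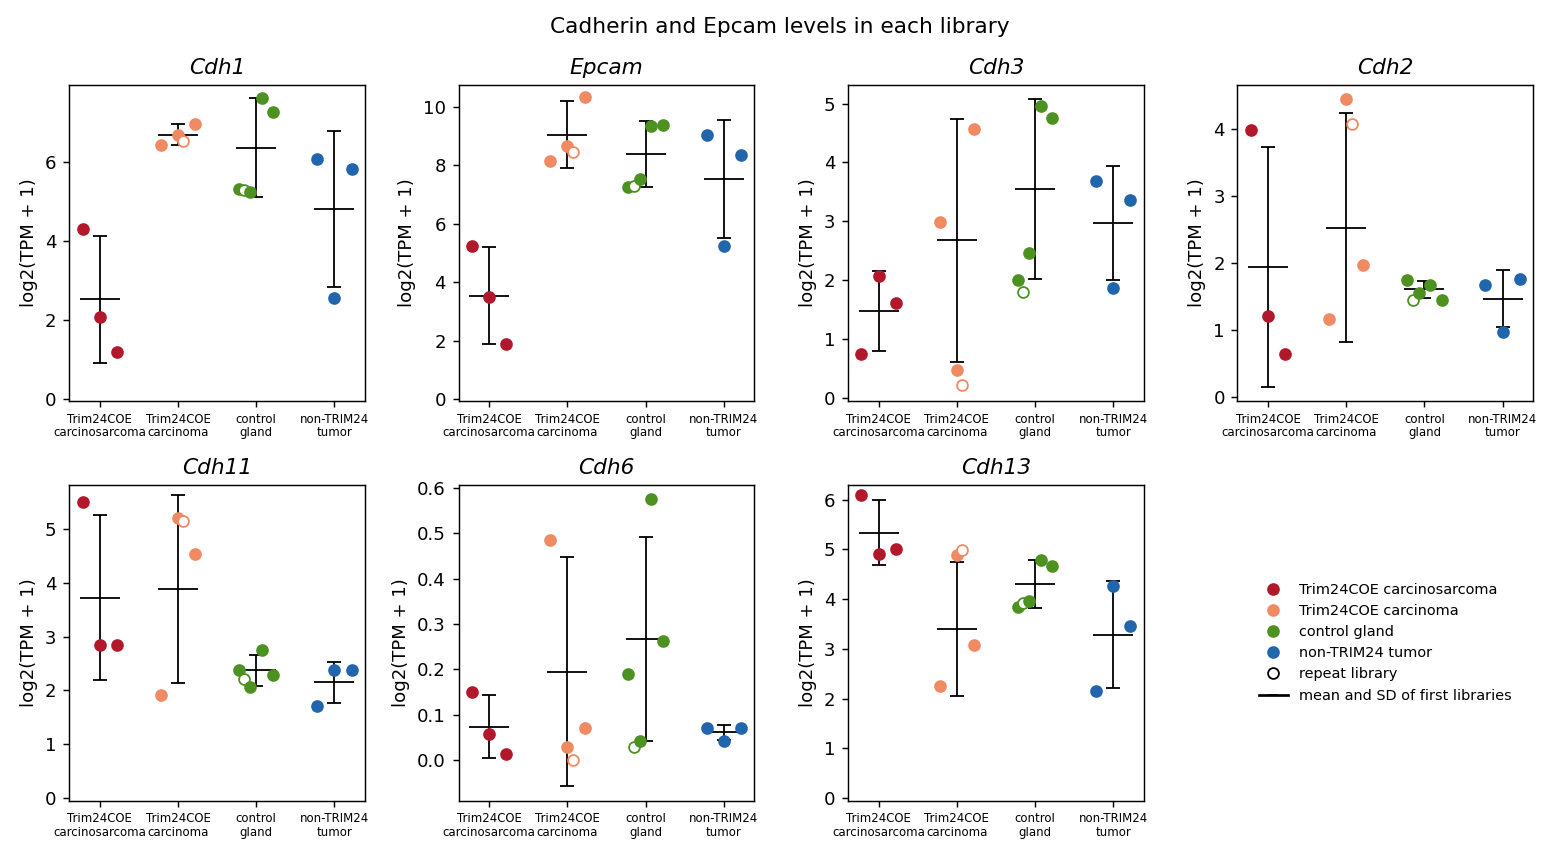
Expression of the 7 genes as log2(TPM + 1) by group. Filled points are first libraries, open points are the repeat libraries of gland 133 and carcinoma 3956, and bars give the mean and SD of first libraries. The 3 carcinosarcomas are the lowest Trim24COE tumors for Cdh1 and Epcam. In first libraries they are the highest for Cdh13, while the repeat of carcinoma 3956 (30.88 TPM) is above carcinosarcoma 64 (29.05 TPM), and Cdh6 is near 0 throughout.

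Between the tumor classes the same 2 genes had larger differences with fewer samples. Carcinosarcomas had log2 differences from carcinomas of -4.17 for Cdh1 (SE 0.74, limma adjusted p = 0.0744) and -5.50 for Epcam (SE 0.90, limma adjusted p = 0.0598), and neither was past the threshold. Of the 6 genes tested, 0 were called by limma, and 3 had an unadjusted p under 0.05 (Cdh1, Epcam and Cdh13). Over all 14193 genes, 0.698% were called and 2126 had an unadjusted p under 0.05. The same 3 genes did not overlap between the first libraries of the classes, as was so for 21.8% of all genes, but Cdh13 overlapped once the repeat library of carcinoma 3956 was counted, and 3 tumors against 3 cannot give an exact permutation p below 0.1. Epcam was called when all 10 mice of batch 1 shared 1 estimate of the spread (limma adjusted p = 0.0249) and after quantile normalization (0.0445). Cdh1 was called without carcinosarcoma 567 (limma adjusted p = 0.0183). Without tumors 89, 567 and 3956, whose pathology calls differed in wording or class, the differences were -4.79 for Cdh1 and -5.44 for Epcam, from 2 carcinosarcomas and 1 carcinoma.

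P-cadherin did not separate the classes. Cdh3 had 3.21, 0.68 and 2.05 TPM in carcinosarcomas 64, 567 and 897, and 22.69, 6.95 and 0.39 TPM in carcinomas 89, 273_5 and 3956. The lowest value of all first libraries was thus in a carcinoma. Control glands ranged from 3.03 and 4.48 TPM in 133 and 392 to 30.13 and 26.03 TPM in 417_3 and 517_3, the same pairs that differed in Krt14. The difference between carcinosarcomas and control glands was -2.07 (SE 0.79, limma adjusted p = 0.0938). It passed the threshold without gland 133 (limma adjusted p = 0.0431), without glands 133 and 392 (0.00216) and with an adipocyte covariate (0.000589), and was -0.76 with a limma adjusted p of 0.231 without 417_3 and 517_3. Carcinoma 3956 also had Krt5 at 0.88 TPM and Trp63 at 0.06 TPM, markers of the basal layer that reached 961 and 31.9 TPM in carcinoma 89, where Cdh3 was highest among tumors.

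Neither mesenchymal cadherin followed the labeled class. N-cadherin Cdh2 (chromosome 18, 16588877 to 16809246, minus strand) had 14.89 TPM in carcinosarcoma 567 and 20.75 TPM in carcinoma 3956. In the other carcinosarcomas it was 1.31 TPM (64) and 0.57 TPM (897), and in the other carcinomas 2.93 TPM (89) and 1.25 TPM (273_5). The 4 control glands lay between 1.74 and 2.35 TPM, so carcinosarcomas 64 and 897 were below every gland. Cdh2 differed between the classes by -0.58 (95% interval -3.19 to 2.03, limma adjusted p = 0.838), and between carcinosarcomas and control glands by 0.34 (95% interval -1.30 to 1.99, limma adjusted p = 0.766). The latter turned to -0.68 without tumor 567.

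Cdh11, a cadherin of fibroblasts and bone-forming cells, had 6.15, 44.09 and 6.13 TPM in carcinosarcomas 64, 567 and 897. Carcinomas had 22.16 TPM in 89, 2.77 TPM in 273_5 and 36.03 TPM in 3956. Control glands lay between 3.19 and 5.75 TPM, below all 3 carcinosarcomas and below carcinomas 89 and 3956, that is 5 of 6 Trim24COE tumors. The log2 difference was 1.35 for carcinosarcomas (SE 0.64, limma adjusted p = 0.163) and 1.52 for carcinomas (SE 0.72, limma adjusted p = 0.277) against control glands, and -0.16 between the classes (95% interval -2.61 to 2.29, limma adjusted p = 0.957). Of 17 alternative fits between carcinomas and glands, 1 called Cdh11, the one without carcinoma 273_5 (log2 difference 2.50, limma adjusted p = 0.0314). Over both classes together the difference was 1.44 (SE 0.67, limma adjusted p = 0.161, exact permutation p = 0.0905, two-sided, n = 6 and 4).

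Tumors 567 and 3956 were the highest of the 13 mice for both Cdh2 and Cdh11, and the lowest Trim24COE tumors for Cdh3 were the same pair. One is labeled carcinosarcoma and the other carcinoma, and both are among the tumors with differing pathology calls. They parted in Cdh1 (18.87 and 102.61 TPM) and Epcam (36.44 and 401.04 TPM). The repeat library of 3956 gave 15.84 TPM for Cdh2, 34.38 TPM for Cdh11, 0.17 TPM for Cdh3 and 91.34 TPM for Cdh1, so high mesenchymal cadherins beside high Cdh1 were measured in both libraries of that tumor. Cdh6 was at or below 0.49 TPM in all 15 libraries, with its highest value in gland 417_3, and was not tested.

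**Figure D2:**
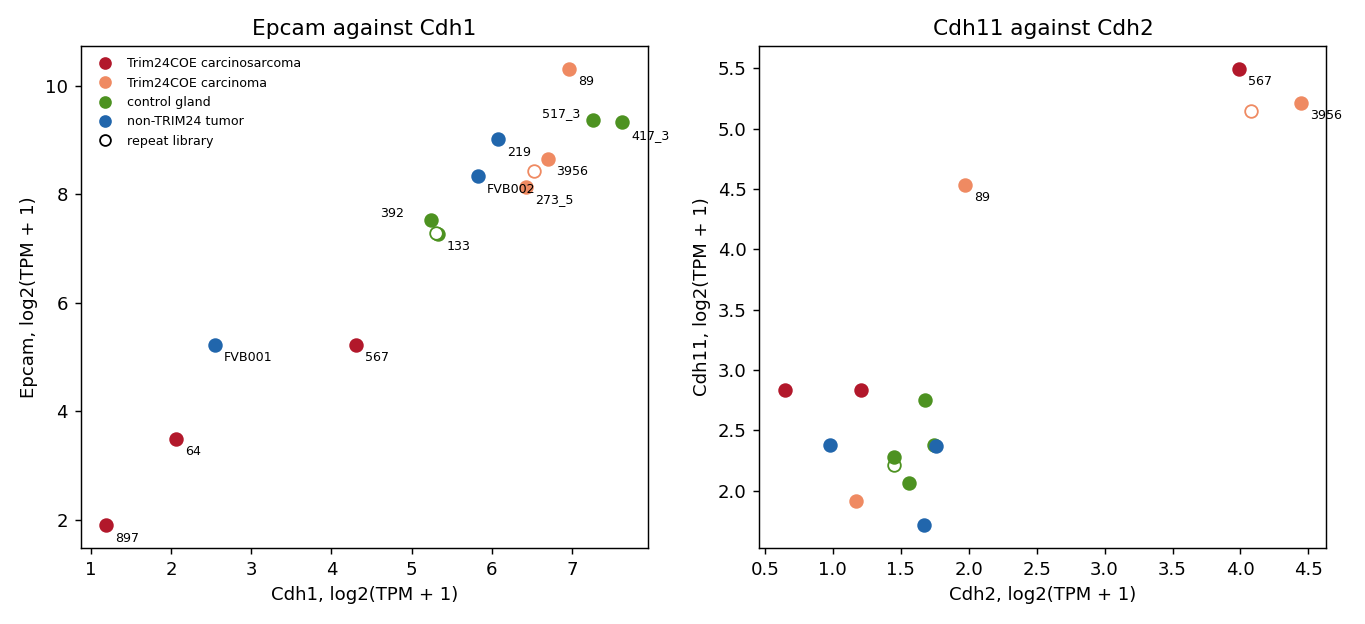
Epcam against Cdh1 and Cdh11 against Cdh2, each as log2(TPM + 1), with 1 point per library, open for repeats and colored by group. Epcam and Cdh1 run along 1 line from carcinosarcoma 897 to the keratin-rich glands, and Cdh2 and Cdh11 are high together in tumors 567 and 3956.

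T-cadherin had its highest values in the carcinosarcomas. Cdh13 had 29.05, 67.64 and 31.19 TPM in carcinosarcomas 64, 567 and 897, against 7.43, 3.79 and 28.71 TPM in carcinomas 89, 273_5 and 3956 and 13.38, 14.50, 26.58 and 24.49 TPM in control glands 133, 392, 417_3 and 517_3. In first libraries each carcinosarcoma was above every carcinoma and every gland, but the repeat library of carcinoma 3956, at 30.88 TPM, lay above carcinosarcoma 64. Neither difference passed the threshold, with 1.93 against carcinomas (SE 0.69, limma adjusted p = 0.274) and 1.03 against control glands (SE 0.39, limma adjusted p = 0.0942). Against control glands it was called after rescaling by median ratio (limma adjusted p = 0.04), after quantile normalization (0.0386) and without glands 417_3 and 517_3 (0.0411). Of the 6 genes tested, 4 (Cdh1, Epcam, Cdh11 and Cdh13) did not overlap between carcinosarcomas and control glands, against 37.0% of all genes.

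Since T-cadherin is abundant in vessels, endothelial genes were read beside it. Of 12 endothelial markers tested between carcinosarcomas and control glands, 0 were called higher and 3 (Vwf, Tek and Robo4) were called lower, near the 23.0% of all genes called there. The difference was above 0 in 1 of the 12, Emcn, with 47.4 to 60.3 TPM in carcinosarcomas and 25 to 44.7 TPM in glands. Their summed level was 291 to 653 TPM in carcinosarcomas, 126 to 363 TPM in carcinomas and 612 to 894 TPM in control glands. VE-cadherin Cdh5 had 28.5, 53.8 and 20.1 TPM in carcinosarcomas 64, 567 and 897, within or below the 41.2 to 83.9 TPM of the glands. Between the classes, 11 of 12 endothelial markers had a difference above 0, with a median of 0.62 against -0.10 for all genes and 0 called. The part of vascular RNA in the level of Cdh13 was not tested.

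**Figure D3:**
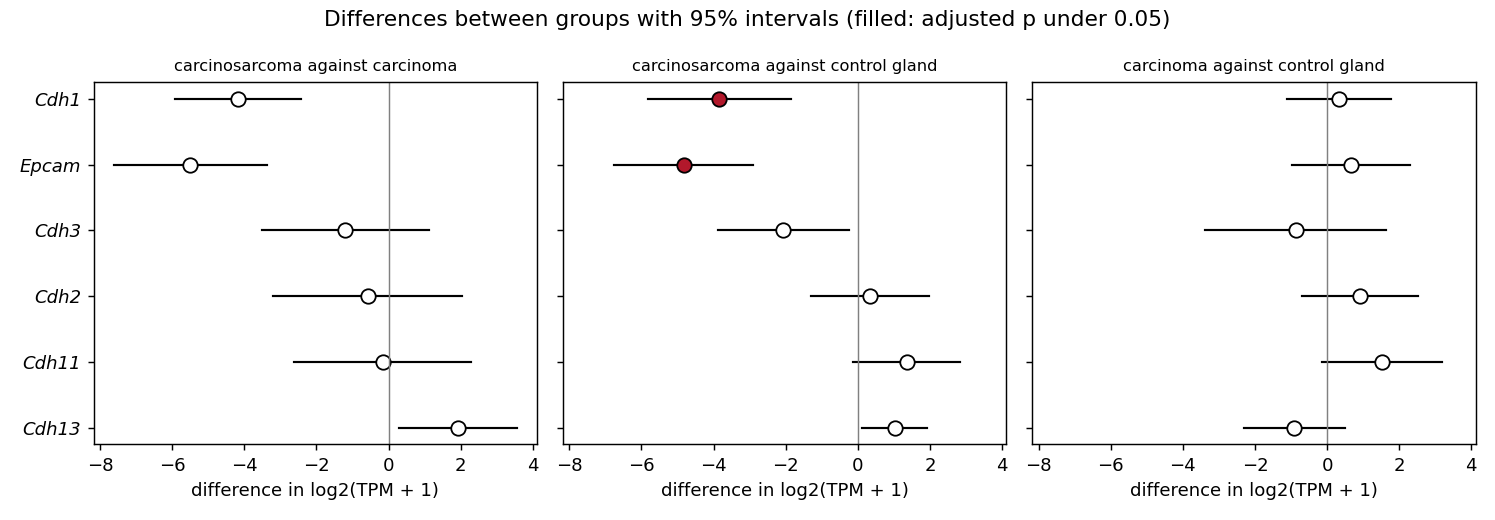
Differences in mean log2(TPM + 1) of the 6 tested genes for 3 comparisons, with the 95% interval of the limma fit. Filled points mark a limma adjusted p under 0.05, which Cdh1 and Epcam reached in carcinosarcomas against control glands.

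TPM are per transcript length, so the cadherins can be ordered within a library. Cdh1 led the 6 cadherins in all 3 carcinomas, all 4 control glands and non-TRIM24 tumors 219 and FVB002, with 52.9% to 84.8% of their summed TPM, repeat libraries included. Cdh13 led in all 3 carcinosarcomas, with 67.6%, 46.2% and 75.6% in tumors 64, 567 and 897, while Cdh1 held 7.43%, 12.9% and 3.13%. Cdh11 was second in each carcinosarcoma. Cdh2 ranked above only Cdh6 in 64 and 897, and above Cdh3 and Cdh6 in 567, and it was below Cdh1 in every library. The E- to N-cadherin ratio was 2.44, 1.27 and 2.26 in carcinosarcomas 64, 567 and 897 and 42.3, 67.9 and 4.95 in carcinomas 89, 273_5 and 3956, with glands at 16.7 to 89.1. In carcinosarcomas 64 and 897 the low ratio came with Cdh2 below the gland range. The summed TPM of the 6 cadherins was 43, 146 and 41.2 in carcinosarcomas 64, 567 and 897 and 179, 100 and 189 in carcinomas 89, 273_5 and 3956. These orders and shares are descriptions and were not tested.

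**Figure D4:**
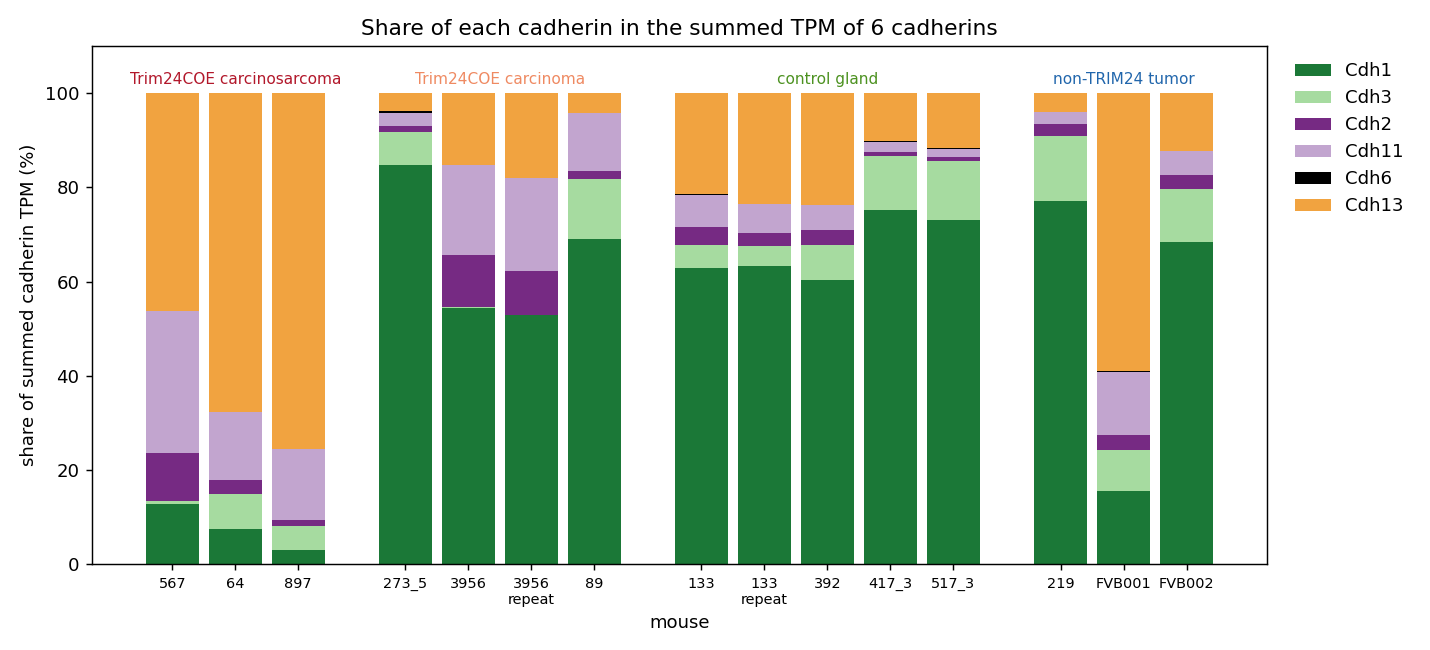
Share of each cadherin, in percent, of the summed TPM of Cdh1, Cdh2, Cdh3, Cdh6, Cdh11 and Cdh13 in each library, grouped by class. Cdh13 fills 46.2% to 75.6% of the bar in carcinosarcomas and 59% in non-TRIM24 tumor FVB001, and Cdh1 fills more than any other of these 6 cadherins in the remaining libraries.

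Low Cdh1 and Epcam did not always go with low keratin. Krt8 and Krt18, the simple keratins of luminal cells, summed to 240 and 383 TPM in carcinosarcomas 64 and 567, below the 412 TPM of gland 133. In carcinosarcoma 897 they summed to 1380 TPM, between glands 392 (744 TPM) and 417_3 (2340 TPM), although Cdh1 and Epcam were lowest there. Per 100 TPM of Krt8 and Krt18, tumor 897 had 0.0937 TPM of Cdh1 and 0.198 TPM of Epcam, tumor 64 had 1.33 and 4.28 TPM, and tumor 567 had 4.93 and 9.52 TPM. Control glands had 4.96 to 9.51 TPM of Cdh1 and 24.7 to 37.3 TPM of Epcam by this measure, and first libraries of carcinomas 1.96 to 14.6 and 7.64 to 151 TPM. The repeat of carcinoma 3956 had 1.37 and 5.16 TPM. Non-TRIM24 tumors 219, FVB001 and FVB002 were also under the glands, with 1.92, 1.81 and 2.89 TPM of Cdh1 and 14.9, 13.6 and 16.6 TPM of Epcam. Carcinosarcoma 567 thus overlapped carcinomas and lay just under the glands for Cdh1, whereas 897 was below every other library for both. Other luminal markers were low in 897 as well, with Krt7 at 0.95 TPM.

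**Figure D5:**
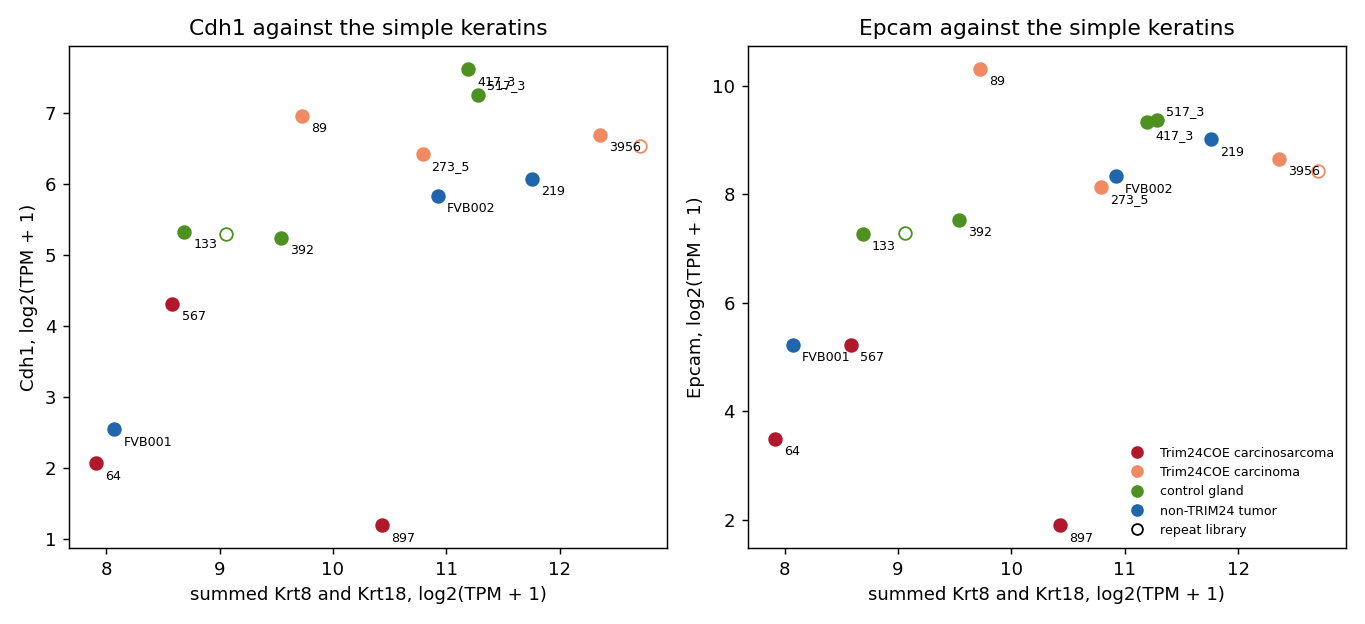
Cdh1 and Epcam, as log2(TPM + 1), against the summed TPM of Krt8 and Krt18 on the same scale, with 1 point per library, open for repeats. Carcinosarcoma 897 has 1380 TPM of these keratins and the lowest Cdh1 and Epcam of the 15 libraries.

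Across the 10 mice of batch 1, Epcam followed Cdh1 most closely among the members (Pearson r = 0.979 of log2(TPM + 1)), and Cdh2 and Cdh11 had r = 0.854. Cdh1 and Cdh2 had r = 0.277, and Cdh1 and Cdh13 r = -0.383. These 10 mice share 3 groups and their tissue makeup, so the values are descriptions and no p is given. Among 13936 genes, those most like Cdh1 were Arhgap27 (r = 0.984), Cldn7 (0.982) and Rab25 (0.98), the last a small GTPase of epithelial recycling endosomes. Those most like Epcam were Colca2 (0.988), Rab25 (0.987) and Cnksr1 (0.984). Rab25 had 1.04, 4.45 and 0.45 TPM in carcinosarcomas 64, 567 and 897 against 40 to 97.3 TPM in carcinomas and 26.3 to 113 TPM in control glands. Cdh13 was most like Csgalnact2 (0.942), Emcn (0.94), an endothelial sialomucin, and Arl6ip5 (0.918). Cdh11 was most like Draxin (0.986), Wnt2b (0.979) and Avpr1a (0.979). Cdh2 was most like Dagla (0.939), Csf2ra (0.938) and Sgk3 (0.928), and Cdh3 was most like Dll1 (0.961), a Notch ligand, with Luc7l (0.947) and Drc3 (0.942).

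Of 10 partners and relatives of EpCAM, 4 were lower in carcinosarcomas than in carcinomas and 0 higher, where 0.698% of all genes were called in either direction, with a median log2 difference of -3.32 against -0.10 for all genes. These were Cldn7, its claudin partner, the matriptase gene St14, and the matriptase inhibitors Spint1 and Spint2. Cldn7 had 2.16, 9.97 and 0.73 TPM in carcinosarcomas 64, 567 and 897 against 118, 119 and 161 TPM in carcinomas 89, 273_5 and 3956 (limma adjusted p = 0.0218). Spint1 had a mean of 0.70 TPM against 33 TPM (limma adjusted p = 0.00734), and St14 3.05 against 91.8 TPM (limma adjusted p = 0.0123). Against control glands, 6 of 10 were lower, among them Spint2 (log2 difference -4.85, limma adjusted p = 0.00249) and the tetraspanin gene Tspan8 (-3.61, 0.00288), and 0 were called higher, where 23.0% of all genes were called in either direction. The differences of 2 of the 10 were above 0.

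On the cytoplasmic side of the junction, of 15 catenin and plaque genes tested between the classes 0 were called, with a median of -0.67. Ctnnb1, beta-catenin, had 514 to 723 TPM in carcinosarcomas and 336 to 597 TPM in control glands, and Ctnna1, alpha-catenin, 107 to 138 and 70.7 to 209 TPM. Against control glands, 4 of 15 were lower in carcinosarcomas and 0 higher, a share near the 23.0% of all genes called. These were Plekha7 (mean 0.87 against 10.7 TPM, limma adjusted p = 0.00177), Jup, or plakoglobin (32.7 against 144 TPM, 0.00688), afadin Afdn (38.2 against 105 TPM, 0.00598) and Arvcf (2.48 against 11.2 TPM, 0.00639). Jup had 24.1, 44.2 and 29.9 TPM in carcinosarcomas 64, 567 and 897, all below the 84 to 202 TPM of the glands. Of 5 nectins, 1 (Nectin4) was lower and 0 higher against control glands, which is also near that share, and 0 were called between the classes.

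Genes that act on cadherin protein were read as 2 further lists. Of 7 proteases known to cleave cadherins that were tested between carcinosarcomas and control glands, 4 were higher and 0 lower. Of all genes, 23.0% were called there in either direction. The median difference of the proteases was 2.39 against -0.12 for all genes. Mmp3 had a mean of 457 against 34.8 TPM (limma adjusted p = 0.00206), Mmp9 217 against 6.66 TPM (0.00984), Mmp14 311 against 63.2 TPM (0.016) and Htra1 506 against 97.6 TPM (0.00615). Between the classes 0 of 8 were higher and 1 was lower, where 0.698% of all genes were called. The lower one was the kallikrein Klk7, with 0.06, 0 and 0.13 TPM in carcinosarcomas 64, 567 and 897 and 47.1, 13.3 and 146 TPM in carcinomas 89, 273_5 and 3956 (limma adjusted p = 0.0378). Of 8 genes of cadherin turnover, 3 were lower in carcinosarcomas than in glands (Rnf43, Numb and Fgd5) and 0 higher, beside the 23.0% of all genes called. Between the classes, 0 of 7 were called.

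Most other cadherins were hardly expressed. Of 21 further genes of the family, 4 passed the filter of at least 1 TPM between the classes, where 0 were called. Against control glands 5 passed it, and 2 (Cdh19 and Cdhr1) were lower in carcinosarcomas, where 23.0% of all genes were called. Cdh19, a cadherin of Schwann cell precursors, had a mean of 0.08 against 1.62 TPM (limma adjusted p = 0.00688). The difference was above 0 in 1 of the 5. Cdh15, also in the list of skeletal muscle markers, did not pass the filter against control glands. It had 0.65 to 31.6 TPM in carcinosarcomas, 0.3 to 1.26 TPM in carcinomas and 0.1 to 0.32 TPM in glands.

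Markers of cell types were counted in the same comparisons. Of 11 luminal markers, 9 were lower and 0 higher in carcinosarcomas against control glands. Against carcinomas, 2 (Krt7 and Cldn3) were lower and 0 higher, where 0.698% of all genes were called. The summed level of the luminal markers was 303 to 1410 TPM in carcinosarcomas, 2020 to 6810 TPM in carcinomas and 879 to 4650 TPM in glands. Of 10 basal markers, 5 were lower in carcinosarcomas than in glands and 0 higher, and Krt5 stood at 0.44, 3.57 and 0.22 TPM in 64, 567 and 897. Fibroblast markers had 4 of 10 higher and 0 lower, with sums of 2120 to 8430 TPM in carcinosarcomas, 339 to 3150 TPM in carcinomas and 650 to 1910 TPM in glands. Macrophage markers had 5 of 7 higher (sums 4520 to 6930 against 527 to 1350 TPM, with 2110 to 6810 TPM in carcinomas). Adipocyte markers had 3 of 12 lower (188 to 296 against 1880 to 46400 TPM, with 150 to 2010 TPM in carcinomas). Schwann cell markers had 5 of 5 lower, of which Sox10 is also a mammary epithelial gene, and smooth muscle and pericyte markers had 2 of 7 lower. The shares of adipocyte and pericyte markers were near the 23.0% of all genes called. In the last 4 lists 0 markers were called the other way, although 3 of the 7 smooth muscle and pericyte markers had a difference above 0. Of 7 skeletal muscle and 7 lymphocyte markers 0 were called. The part of the makeup of the tissue in the levels of the cadherins and Epcam was not tested.

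Between carcinomas and control glands, of 6 genes tested, 0 were called and 0 had an unadjusted p under 0.05. Of all 15479 genes, 3.50% were called and 3328 had an unadjusted p under 0.05. None of the 6 was free of overlap between the groups, against 21.4% of all genes. Log2 differences were 0.33 for Cdh1 (95% interval -1.11 to 1.77) and 0.66 for Epcam (95% interval -0.98 to 2.30). For Cdh11 the difference was 1.52 (95% interval -0.15 to 3.18), and, as given above, it was called without carcinoma 273_5. Cdh1 was the gene that the choice of glands decided: without 417_3 and 517_3 it was 1.41 higher in carcinomas (limma adjusted p = 0.0394), and without 133 and 392 the difference was -0.75 (limma adjusted p = 0.139). Around the members, Krt7 was higher in carcinomas (484 against 44.7 TPM, limma adjusted p = 0.0239), as was Klk7 (68.9 against 0.36 TPM, 0.016). Basal markers had 3 of 10 lower (Oxtr, Mylk and Myh11) and endothelial markers 3 of 12 lower (Vwf, Tek and Kdr).

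When both Trim24COE classes were joined against the control glands, 0 of 6 members were called and 0 were free of overlap, where 17.1% of all 15196 genes were called and 14.6% did not overlap. None had an unadjusted p under 0.05, which 4953 of all genes had. Cdh1 was below every gland in 3 of 6 tumors and Epcam in 3 of 6, all of them carcinosarcomas. The comparisons with control glands share the same 4 glands and are not independent of one another.

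Among non-TRIM24 tumors, FVB001 stood apart. Cdh1 had 66.42, 4.84 and 55.90 TPM and Epcam 516.18, 36.42 and 321.31 TPM in 219, FVB001 and FVB002. Cdh2 was 2.18, 0.97 and 2.39 TPM, Cdh3 11.87, 2.67 and 9.31 TPM, Cdh11 2.28, 4.19 and 4.17 TPM and Cdh13 3.43, 18.25 and 9.98 TPM in the same order. FVB001 combined Cdh1 and Epcam below every control gland with Krt8 and Krt18 at 268 TPM and the highest Adipoq of all libraries, while its Cdh2 was below and its Cdh11 within the range of the glands. Epcam per 100 TPM of Krt8 and Krt18 was 13.6 TPM in FVB001, close to the 14.9 and 16.6 TPM of 219 and FVB002.

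In the fits with a batch term, 0 of 6 members were called in each comparison with non-TRIM24 tumors. The share of all 16775 genes called was 0.107% against control glands, 0.0179% between Trim24COE carcinomas and non-TRIM24 tumors, and 0.0775% between carcinosarcomas and non-TRIM24 tumors. Members with an unadjusted p under 0.05 numbered 0, 1 (Cdh11) and 3 (Epcam, Cdh3 and Cdh13). Of all 16775 genes, 1787, 2961 and 2752 had such a p in the same order. These fits treat repeat libraries as separate mice, and the batch term then draws on differences between mice. For Cdh3 it gave a difference of 1.45 between non-TRIM24 tumors and glands although the mean level was 7.95 TPM in the tumors and 15.9 TPM in the glands. With the shift between the repeat and first libraries subtracted instead, an alternative added after the data were seen, this difference was -0.34, and Epcam was lower in carcinosarcomas than in non-TRIM24 tumors by -4.08 (limma adjusted p = 0.0385) rather than -4.83 (limma adjusted p = 0.14). Epcam was also called there without tumor FVB001 (limma adjusted p = 0.0446). The repeat libraries differed from the first by at most 0.37 on the log2(TPM + 1) scale in any member, in Cdh2 of tumor 3956.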

How the data were processed

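RNA-seq of mouse mammary tumors and glands was analyzed from the TPM tables that the authors deposited. Per the study's methods, reads were trimmed with Trimmomatic and aligned with STAR to GRCm38 with a GENCODE annotation, and the authors estimated TPM with RSEM. The submitters' processing notes also name other tools, among them TopHat and Cufflinks, with no role. Sources differ on the library kit, so strandedness is unclear. No read counts were used here.

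Group and batch came from the sample labels. limma 3.58.1 in R 4.3.3 (lmFit, eBayes with a variance trend) was run on log2(TPM + 1), two-sided, over genes that reached 1 TPM in a number of libraries no less than the size of the smaller group, with Benjamini-Hochberg adjustment over all of them and a threshold of 0.05. The added 1 TPM understates changes of weakly expressed genes. Comparisons within batch 1 used first libraries of the groups compared, whereas the 15 libraries entered together, with batch as a term, wherever non-TRIM24 tumors were compared. Single values were compared by exact permutation tests. A level is a TPM value, and a difference is on the log2(TPM + 1) scale.

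The 7 genes and the 16 gene lists were chosen with earlier results of these data known, so counts over them are descriptions. Genes named are the 7, the 3 genes most correlated with each tested one over 10 mice (clone names left out), and from each list up to 4 called genes per comparison with the smallest adjusted p and the first 3 cell type markers. Emphasis on Krt7 in 897, Ctnna1 and Ctnnb1 was chosen after values were seen. On simulated data with 200 genes changed 8-fold (3 on the log2 scale), limma recovered 88.5% in the layout of carcinosarcomas against carcinomas, with 7.81% of calls false, and 91.5% in that against control glands, with 6.63% false. The changed genes were drawn only from well expressed genes of small spread, with equal noise in both groups. Cdh1 and Epcam varied more within the groups, so these rates do not carry over to them. Alternatives varied pseudocount, filter, scaling, variance trend, samples, repeat libraries, batch term, an adipocyte covariate and each mouse. Positions are from GENCODE M21 and the promoter from RefSeq. Some items are not reported here.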

Additional observations from a re-analysis of the deposited data

Results flagged for a closer look

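Cdh6 in carcinoma 273_5, at 0.40 TPM, lay far from the other 5 Trim24COE tumors, which had 0.01 to 0.11 TPM. The gap was 0.711 of the range on the log2(TPM + 1) scale. It was the only one flagged of 14 sets of values checked (7 genes in the control glands and in the Trim24COE tumors), and chance flags about 1 set in 20. The value is below the 1 TPM needed for a test.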

How the results depend on the processing

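Over 42 pairs of a gene and a comparison, 792 alternative fits gave the same direction and side of the threshold in 727, lost a call in 4, gained one in 15 and turned the direction in 46. The number of members called moved from 0 to 1 between the classes with quantile normalization and with all 10 mice of batch 1 in 1 fit, and was 0 to 1 when 1 mouse was left out. For carcinosarcomas against control glands it was 1 with no filter on low values, 3 with median-ratio rescaling and quantile normalization (Cdh13 added) and with the adipocyte covariate and without glands 133 and 392 (Cdh3 added), and 1 to 3 with 1 mouse left out, the most without gland 133. For carcinomas against control glands it was 1 without glands 417_3 and 517_3, and 0 to 1 with 1 mouse left out. For carcinosarcomas against non-TRIM24 tumors it was 1 with no batch term, with duplicateCorrelation and with the shift of the repeat libraries subtracted, and 0 to 1 with 1 mouse left out. In each case the cause was not tested.

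No reversed value was past the threshold. Between the classes, Cdh11 turned to 0.00 with quantile normalization (0.001 unrounded), 0.06 with the adipocyte covariate and 0.92 without tumors 89, 567 and 3956, and ran from -1.15 to 0.50 with 1 mouse left out. Cdh3 turned to 0.48 with the covariate, and Cdh2 ran from -1.60 to 0.38 with 1 mouse left out. For carcinosarcomas against glands, Cdh2 ran from -0.68 to 0.99. For carcinomas against glands, Cdh1 turned to -0.52 with the covariate and -0.75 without glands 133 and 392, Epcam to -0.32 without those glands, and Cdh3 to 0.45 without 417_3 and 517_3. For all Trim24COE tumors, Cdh13 turned to -0.96 with the covariate and -0.35 without 133 and 392. For non-TRIM24 tumors against glands, Epcam turned to -0.02 with quantile normalization, and Cdh3 and Epcam turned to -0.22 and -0.63 with no batch term, -0.26 and -0.73 with duplicateCorrelation and -0.34 and -0.75 with the shift subtracted, while Cdh2 turned to 0.14 and 0.19 in the last 2. With 1 mouse left out, differences of carcinomas against glands ran from -0.043 to 0.75 for Cdh1, -0.037 to 1.60 for Cdh2 and -1.81 to 0.23 for Cdh3, and that of all Trim24COE tumors from -0.29 to 0.48 for Cdh13. For non-TRIM24 tumors against glands they ran from -1.73 to 0.31 for Cdh1, -1.64 to 0.015 for Cdh2 and -0.70 to 1.2 for Epcam, and for carcinomas against non-TRIM24 tumors from -0.052 to 2.60 for Cdh2, -1.01 to 1.70 for Cdh13 and -0.43 to 1.47 for Epcam.

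Quantile normalization moved the median of all genes from -0.12 to 0.04 for carcinosarcomas against glands and the share of calls that were higher from 42.8% to 56.1%, with Cdh1 and Epcam called in both. Rescaling by median ratio moved it from -0.21 to -0.08 for non-TRIM24 tumors against glands and from 0.21 to -0.05 for carcinomas against non-TRIM24 tumors. No paired analysis was possible because the groups share no mouse numbers. The limits are groups of 3 or 4 mice of mixed tissue makeup, unknown depth, and a batch that only the 2 mice sequenced again connect.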
